A study of Mus musculus with 40 samples.

Results

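Npas4, Egr1 to Egr4 and Nr4a1 to Nr4a3 are 8 transcription factors whose genes are switched on within minutes when neurons fire. The 8 genes were picked by symbol from the 55539 features of the deposited count table, and all 8 were among the 15224 features that passed the filter on low counts. Npas4 was 322 to 555 CPM (a gene's counts scaled to the same library total) in 3 of the 39 samples, all collected 30 min after 3 or 5 closed head injuries (3xCHI or 5xCHI), and 5.95 to 52.8 CPM in the other 36. Across injury numbers, Npas4, Egr4 and Nr4a1 were higher 30 min than 24 h after the last injury, and none of the 8 genes passed the test at 4 h against 24 h. Against the groups taken as the level before each injury, none of the 8 genes passed at any time in the main edgeR fit. The difference from 24 h was therefore not shown to be a rise above that level. The 3 calls at 30 min against 24 h rested on few samples. Egr4 and Nr4a1 were not called without replicate 8, 13 or 22. Npas4 was called in each of the 39 fits that left out 1 sample, with an edgeR adjusted p of up to 0.0495. Without both replicates 13 and 14 of 1xCHI, which left 1 sample in that group, the log2 differences were 2.46 for Npas4, 1.02 for Egr4 and 1.06 for Nr4a1.

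RNA was sequenced from somatomotor cortex of the left hemisphere. All mice were female and 3xTg-AD, a line on C57BL/6J that in every group carries mutant human APP and MAPT transgenes under a neuronal Thy1 promoter and a mutant presenilin allele, and were 2 to 4 months old. Closed head injury (CHI) was a weight drop on the intact skull under isoflurane, given once a day. Samples were taken at 30 min, 4 h or 24 h following 1xCHI (3, 3 and 4 samples), 3xCHI (3, 2 and 4) and 5xCHI (3, 3 and 4), and 24 h after 2xCHI (3) and 4xCHI (3). The 4 sham-injured mice (Sham) were anaesthetized without injury, and sham-injured mice of all schedules were combined, so that time since anaesthesia and time since injury cannot be told apart in the injured groups. How long before collection each Sham mouse was anaesthetized is not given in the sources used here, which limits every comparison with Sham. Sham was the pre-injury group of 1xCHI, 2xCHI at 24 h that of 3xCHI and 4xCHI at 24 h that of 5xCHI. Sample 30 (3xCHI at 4 h), an outlier in the protein data, was left out. Each sample came from a separate mouse, and samples are named here by group and by the sample number of the labels. Library totals were 15926014 to 27859547 counts (median 19028778), and the lowest count of any member in any used sample was 15 (Egr2). Some libraries stood apart. Replicates 13 and 14 of 1xCHI at 30 min had the highest summed blood markers of the 39 samples (484 and 483 CPM, against 84.9 CPM in replicate 27 of the same group), the largest shares of counts in the top 10 features (11.7% and 10.6%) and the 2 lowest TMM factors. Replicate 11 of 5xCHI at 24 h had the lowest excitatory neuron sum (4297 CPM) and the highest astrocyte (3807 CPM), microglia (627 CPM) and oligodendrocyte (8343 CPM) sums, and replicate 10 of 5xCHI at 4 h was second in those 3 glial sums. In bulk tissue, fewer cells of a type and less RNA per cell cannot be told apart.

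Npas4 is a basic helix-loop-helix PAS factor that pairs with Arnt proteins and is known for being induced by calcium entry in neurons and by few other stimuli. The Egr genes encode zinc finger factors and the Nr4a genes encode orphan nuclear receptors. Both families respond to calcium, cAMP and growth factor signals through CREB, SRF and MEF2 sites near their start sites. Their proteins act on genes with roles at synapses, among them Arc, Bdnf and Homer1. In cortex, Egr1 has a high level at rest that follows ongoing activity, whereas Npas4 and Fos are low at rest.

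The sequences before the start sites are shown because members that moved together can be compared for CREB sites there. RefSeq windows of 250 bases before each start (GRCm38.p6) were on hand for 6 of the 8 genes, and none was used for Egr1 and Egr3. TGACG, the core of a CREB site (CRE), was searched on both strands (CGTCA on the other). It was present in 17.8% of all 32851 windows, at least 2 copies were present in 3.9%, and at least 4 in 0.137%. The single windows of Npas4 and Egr4 had 2 copies and those of Nr4a1, Nr4a2 and Nr4a3 had 4. Of the 5 windows of Egr2, 3 that overlap had 2 copies and the other two had 0. The whole Npas4 window lies in the first exon of the GENCODE M21 annotation, so only 30 bases of it, minus strand, chr19:4990129-4990158, are shown. The other 3 sequences are the window of Egr4 (minus strand, chr6:85513590-85513839), that of Nr4a1 (plus strand, chr15:101266596-101266845) and the part of the Nr4a3 window before its first annotated exon (plus strand, chr4:48045055-48045152). They read 5′ to 3′ on the strand of the gene, and capitals mark TGACG or CGTCA.
Npas4: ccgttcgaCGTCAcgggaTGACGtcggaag
Egr4: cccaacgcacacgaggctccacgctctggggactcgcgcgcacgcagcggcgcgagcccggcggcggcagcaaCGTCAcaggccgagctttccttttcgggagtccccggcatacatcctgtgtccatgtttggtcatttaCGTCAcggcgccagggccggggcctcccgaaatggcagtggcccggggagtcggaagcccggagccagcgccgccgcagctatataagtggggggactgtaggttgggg
Nr4a1: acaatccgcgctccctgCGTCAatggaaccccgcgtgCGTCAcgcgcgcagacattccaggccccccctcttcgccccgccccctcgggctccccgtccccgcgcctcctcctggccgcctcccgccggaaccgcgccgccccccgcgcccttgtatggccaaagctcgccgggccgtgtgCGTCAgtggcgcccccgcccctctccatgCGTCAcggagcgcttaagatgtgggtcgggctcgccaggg
Nr4a3: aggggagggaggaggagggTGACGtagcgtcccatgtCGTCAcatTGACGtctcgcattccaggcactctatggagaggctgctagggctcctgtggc

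The unbroken palindrome TGACGTCA was in none of the windows of the 6 genes and in 1.55% of all windows. The CArG box, the letters bound by SRF, was in 1.47% of all windows and, among the 6 genes, only in Egr2, for which 5 windows were on hand. Both of its boxes are shown in capitals, first plus strand chr10:67537484-67537513 and then plus strand chr10:67537787-67537816.
Egr2 first box: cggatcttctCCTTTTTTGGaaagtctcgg
Egr2 second box: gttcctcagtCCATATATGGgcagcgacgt

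The Egr site, searched as GCGTGGGCG and GCGGGGGCG on both strands, was present once, in the Nr4a1 window, and in 3.06% of all windows. The Nr4a site AAAGGTCA was in no window of the 6 genes and in 1.34% of all. These matches are letters in a window and carry no measurement of binding.

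Per kilobase of exon, which allows genes to be compared, the median level over the 39 samples was highest for Egr1 (53.4 CPM per kb) and Egr3 (32.3 CPM per kb). It was lowest for Egr2 (1.33 CPM per kb), and Npas4 was also low (3.84 CPM per kb). The order changed in the highest sample of each gene, where Npas4 reached 134 CPM per kb and Egr1 151 CPM per kb. The highest sample was 35.0 times the median for Npas4, 7.59 times for Egr2 and 2.18 times for Egr3, which was the steadiest of the 8 on this measure.

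**Figure D1:**
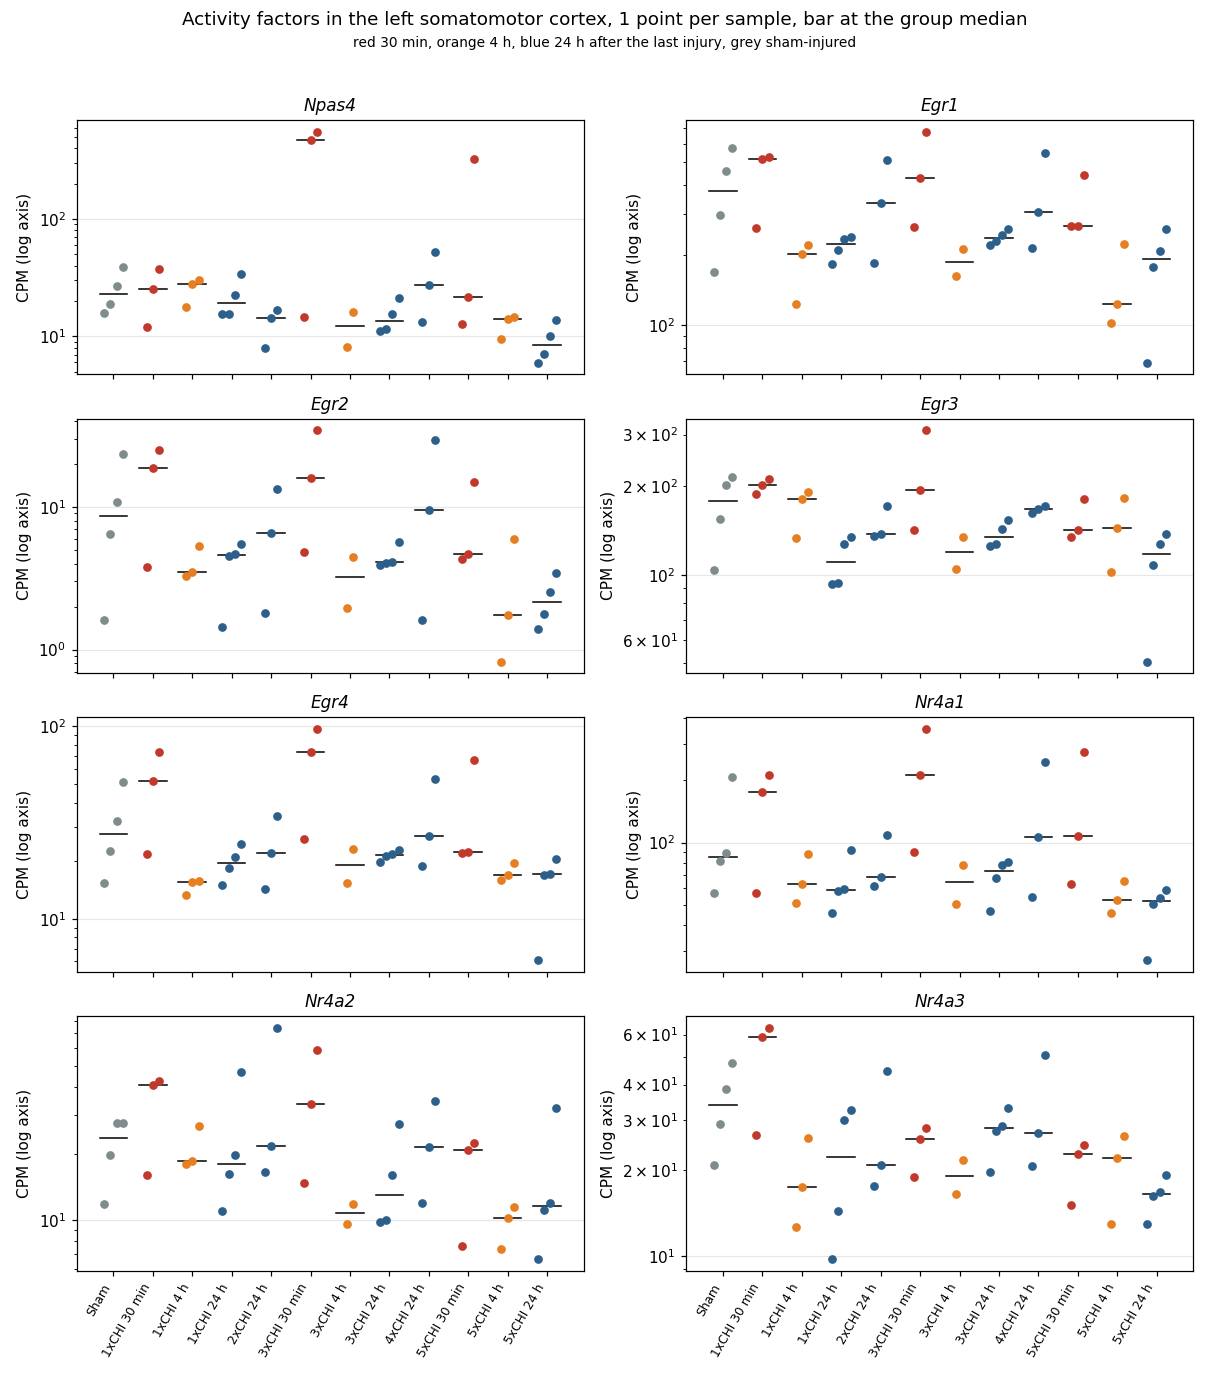
Level of each activity factor in CPM (log axis) in the 39 samples by group, 1 point per sample with a bar at the group median. Npas4 has 3 points above 300 CPM, 2 at 30 min after 3xCHI and 1 at 30 min after 5xCHI, while Nr4a3 has its highest points at 30 min after 1xCHI.

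Npas4 had 3 samples far above the rest, all at 30 min. After 3xCHI at 30 min it was 472 CPM in replicate 4, 14.7 CPM in replicate 5 and 555 CPM in replicate 22. After 5xCHI at 30 min it was 12.9 CPM in replicate 7, 322 CPM in replicate 8 and 21.7 CPM in replicate 31. After 1xCHI at 30 min it was 37.6 CPM in replicate 13, 25.4 CPM in replicate 14 and 12.1 CPM in replicate 27. Thus 2 of 3 samples were high after 3xCHI, 1 of 3 after 5xCHI and none of 3 after 1xCHI, and the samples that were not high lay in the range of the other groups.

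At later times and before injury Npas4 had no sample above 52.8 CPM. It was 15.9, 38.8, 26.6 and 18.9 CPM in Sham. It was 14.3, 16.7 and 7.89 CPM in 2xCHI and 13.2, 52.8 and 27.6 CPM in 4xCHI, both at 24 h. The 4xCHI sample at 52.8 CPM, replicate 25, was the fourth highest of all. At 4 h it was 30.4, 27.7 and 18.0 CPM after 1xCHI, 8.13 and 16.2 CPM after 3xCHI, and 14.7, 9.56 and 14.2 CPM after 5xCHI. At 24 h it was 34.0, 15.4, 15.5 and 22.6 CPM after 1xCHI, 11.6, 11.2, 21.4 and 15.6 CPM after 3xCHI, and 5.95, 7.02, 13.7 and 10.0 CPM after 5xCHI.

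A test of any difference among the 3 times within 1xCHI, 3xCHI and 5xCHI called 5 features of 15224 (0.0328%), of which 1 was a member, Npas4 (quasi-likelihood F test of edgeR, p adjusted by Benjamini-Hochberg over all features, adjusted p = 0.00444). At an unadjusted p under 0.05 it called 4.25% of all features and 7 of the 8 members, all but Nr4a2. For 30 min against 24 h, taken as the mean of the differences within 1xCHI, 3xCHI and 5xCHI, 23 features (0.151%) passed the adjusted threshold, and 3 of the 8 members were among them. All 8 members were higher at 30 min, with a median log2 difference of 1.19 against -0.0089 for all features, and 7 of 8 had an unadjusted p under 0.05, which held for 10.5% of all features.

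The pooled log2 difference between 30 min and 24 h was 2.83 ± 0.45 (SE) for Npas4, with an edgeR adjusted p of 0.00244. It was made of unequal parts, since the difference was 0.27 ± 0.77 within 1xCHI, 4.52 ± 0.82 within 3xCHI and 3.69 ± 0.81 within 5xCHI. Without replicate 8 of 5xCHI at 30 min the pooled difference was 1.91, with an edgeR adjusted p of 0.0495. Among the 39 fits that each left out 1 sample, these were the lowest difference and the highest adjusted p. In a fit of only the groups compared, which has fewer samples to estimate the spread, the adjusted p was 0.0554. Without both replicates 13 and 14 of 1xCHI, a fit added after the values were seen in which replicate 27 alone stands for that group and is assumed to vary like the others, the difference of Npas4 was 2.46 with an edgeR adjusted p of 0.235. In that fit no member and no feature was called for 30 min against 24 h (0%), and the differences of Egr4 and Nr4a1 were 1.02 and 1.06. For any difference among the 3 times, the same edgeR fit still called Npas4, with 0.0131% of all features called. Another fit added after the values were seen left out both replicates 10 and 11. For 30 min against 24 h it called Npas4, Egr4, Nr4a1 and Egr3, with 0.158% of all features.

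Egr4, a zinc finger factor found mainly in the nervous system, was higher by 1.43 ± 0.26 (SE) on the log2 scale at 30 min than at 24 h (edgeR, adjusted p = 0.0111). At 30 min it was 73.1, 52.2 and 21.7 CPM after 1xCHI (replicates 13, 14 and 27), 73.7, 25.8 and 96.8 CPM after 3xCHI (replicates 4, 5 and 22) and 21.9, 66.9 and 22.2 CPM after 5xCHI (replicates 7, 8 and 31). Its 12 samples at 24 h after the same injury numbers were 6.09 to 24.4 CPM (median 20.0) and its 8 samples at 4 h were 13.2 to 22.9 CPM. Hence 6 of 9 samples at 30 min lay above every one of these later samples, and the remaining 3 lay within the later range. Replicate 5 of 3xCHI, at 25.8 CPM, was among the 6 by a small margin. The log2 difference was 1.40 within 1xCHI, 1.61 within 3xCHI and 1.28 within 5xCHI, and differences between these 3 values were not tested.

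Nr4a1, an orphan nuclear receptor also named Nur77, was higher by 1.53 ± 0.29 (SE) on the log2 scale (edgeR, adjusted p = 0.0120). At 30 min it was 211, 175 and 57.2 CPM after 1xCHI, 213, 89.8 and 355 CPM after 3xCHI and 107, 275 and 63.0 CPM after 5xCHI, in the order of replicates given for Egr4. Its samples of the same injury numbers were 26.9 to 92.2 CPM at 24 h (median 58.8) and 45.5 to 88.2 CPM at 4 h (median 57.9). Again 6 of the 9 samples at 30 min were above every one of these later samples, among them replicate 7 of 5xCHI at 107 CPM, while replicate 5 of 3xCHI at 89.8 CPM was within the later range. The calls for Egr4 and Nr4a1 each rested on single samples: without replicate 8, 13 or 22 the adjusted p was 0.0796, 0.0609 and 0.0524 for Egr4 and 0.0878, 0.0622 and 0.0643 for Nr4a1.

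Egr1, Egr2 and Egr3 did not pass the adjusted threshold of edgeR at 30 min against 24 h, but DESeq2 called all 3 (adjusted p of 0.0243, 0.0141 and 0.00605), with 0.342% of all features called. Egr1, the family member most used as an activity marker, had a log2 difference of 0.95 ± 0.24 (SE, edgeR adjusted p = 0.112). Its 9 samples at 30 min were 261 to 676 CPM (median 427), its 8 samples at 4 h were 102 to 223 CPM and its 12 samples at 24 h after 1xCHI, 3xCHI and 5xCHI were 68.8 to 259 CPM. Among these samples, in CPM, Egr1 was the 1 feature of 15224 (0.00657%) with every 30 min sample above every 4 h and 24 h sample, and 2 features (0.0131%) had every 30 min sample above every 24 h sample. The 24 h samples of 2xCHI and 4xCHI were not part of this count, and Egr1 reached 509 CPM in 2xCHI and 545 CPM in 4xCHI. With TMM or DESeq2 scaling no feature was separated in this way, as the lowest 30 min value of Egr1 was then 258 or 259 CPM against a highest later value of 265 CPM in both.

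Egr2, also named Krox20 and low in cortex at rest, had a log2 difference of 1.96 ± 0.46 (SE, edgeR adjusted p = 0.0743). It was 24.9, 18.7 and 3.79 CPM after 1xCHI, 15.9, 4.84 and 34.4 CPM after 3xCHI and 4.31, 14.9 and 4.71 CPM after 5xCHI at 30 min. The samples of the same injury numbers at 24 h were 1.39 to 5.68 CPM and at 4 h 0.824 to 5.95 CPM, so that 5 of the 9 samples at 30 min lay above all of them. Egr3 had a smaller difference of 0.69 ± 0.15 (SE, edgeR adjusted p = 0.0516), with 135 to 310 CPM at 30 min (median 188) against 50.6 to 153 CPM at 24 h after the same injury numbers (median 127). Egr3 passed in 5 of the 7 alternatives that changed the scaling, filter, tool, model or set of groups: DESeq2, library size scaling, no count filter, all 40 samples and a term for sample number.

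Nr4a2 and Nr4a3 had log2 differences of 0.62 ± 0.32 and 0.48 ± 0.22 (SE), with edgeR adjusted p-values of 0.485 and 0.464. Nr4a3, also an orphan receptor, was 63.5, 58.9 and 26.7 CPM at 30 min after 1xCHI, the first 2 of which were its highest values of all. It was 19.0, 25.8 and 28.1 CPM after 3xCHI and 24.6, 22.7 and 15.1 CPM after 5xCHI, within the 9.75 to 33.1 CPM of the 24 h samples of the same injury numbers. The log2 difference from 24 h was 1.28 ± 0.37 within 1xCHI, -0.18 ± 0.38 within 3xCHI and 0.36 ± 0.39 within 5xCHI. Npas4 and Nr4a3 were therefore high in different samples at 30 min. Nr4a2, also named Nurr1 and known from midbrain dopamine neurons, claustrum and deep cortical layers, had its highest value 24 h after 2xCHI (74.3 CPM in replicate 29, against 21.7 and 16.5 CPM in the other two).

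**Figure D2:**
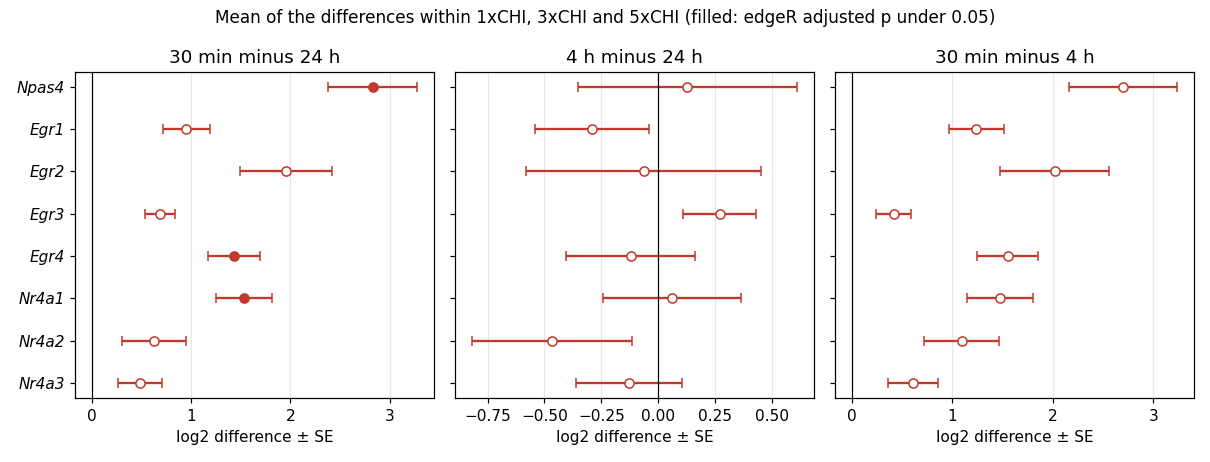
Log2 difference (± SE, from edgeR) of each member between times after the last injury, as the mean of the differences within 1xCHI, 3xCHI and 5xCHI; filled points had an adjusted p under 0.05. Npas4 (2.83), Egr4 (1.43) and Nr4a1 (1.53) are filled for 30 min minus 24 h, and for 4 h minus 24 h all 8 points lie between -0.47 and 0.27.

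When each injury number was tested alone, a comparison added after the values were seen, no feature had an edgeR adjusted p under 0.05 (0% of 15224). The members with an unadjusted p under 0.05 were 6 of 8 within 1xCHI (6.46% of all features), 7 of 8 within 3xCHI (4.1%) and 5 of 8 within 5xCHI (2.39%). Npas4 was among these after 3xCHI and 5xCHI, and Nr4a3 was among them only after 1xCHI. 

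At 4 h no difference from 24 h was detected for any of the 8 genes. For 4 h against 24 h, 1 feature (0.00657%) passed the adjusted threshold and none of the members did, either with edgeR or with DESeq2. No member had an unadjusted p under 0.05, against 3.43% of all features. The log2 differences ran from -0.47 for Nr4a2 to 0.27 for Egr3 (median -0.093). With standard errors of 0.16 to 0.52, smaller differences at 4 h were not detectable at this number of samples.

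For 30 min against 4 h, which uses the same 30 min samples, 1 feature (0.00657%) and no member passed the adjusted threshold of edgeR, and all 8 members had an unadjusted p under 0.05, against 4.51% of all features. The median log2 difference of the members was 1.36. DESeq2 called 4 members, Npas4, Egr1, Egr4 and Nr4a1, with 0.158% of all features. These 4 were also called without the count filter (0.0488% of all features) and with all 40 samples (0.0986%).

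Against the pre-injury groups, no member passed the adjusted threshold of edgeR in any of the 9 comparisons, in each of which it called 0 features (0%). After 1xCHI at 30 min the members were all higher than in Sham by 0.06 to 0.75 on the log2 scale (median 0.55), with 0 of 8 at an unadjusted p under 0.05 against 19.7% of all features. Single libraries set that share: it was 39.9% without replicate 27, when 23.7% of features but no member passed the adjusted threshold of edgeR, 3.79% without replicate 13 and 9.45% without replicate 14. Without both 13 and 14, 7 of the 8 differences from Sham were below 0. Sham itself was spread widely: Egr1 was 168, 573, 458 and 297 CPM and Nr4a1 81.5, 208, 89.1 and 56.8 CPM, each with the second value from replicate 20. The difference between 30 min and 24 h after 1xCHI was hence not matched by a detectable difference between 30 min and Sham, and 24 h after 1xCHI 7 of 8 members were below Sham.

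After 3xCHI at 30 min, 3 of 8 members had an unadjusted p under 0.05 against 1.89% of all features, Npas4 (log2 difference 4.72 ± 0.93 SE), Egr4 (1.46 ± 0.49) and Nr4a1 (1.45 ± 0.54). Npas4 had the smallest p of the 15224 features in this comparison, with an edgeR adjusted p of 0.269. Its mean was 347 CPM at 30 min and 13.0 CPM in 2xCHI at 24 h, but replicate 5, at 14.7 CPM, lay within the pre-injury range of 7.89 to 16.7 CPM. Its adjusted p was 0.000149 with DESeq2, 0.0223 without the count filter and, with edgeR, 0.00536 without replicate 5 and 0.00684 without replicate 8 of 5xCHI.

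After 5xCHI at 30 min, 1 of 8 members had an unadjusted p under 0.05 against 6.35% of all features, namely Npas4 with a log2 difference of 1.94 ± 0.83 (SE, edgeR adjusted p = 0.782). That value rested on replicate 8, and without it the difference was -0.82. The other members differed from 4xCHI at 24 h by -0.76 to 0.19. The pre-injury group was itself uneven here, as replicate 25 had 545 CPM of Egr1, 29.7 CPM of Egr2 and 245 CPM of Nr4a1, against 213 and 306 CPM, 1.61 and 9.57 CPM, and 54.6 and 106 CPM in replicates 24 and 40.

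**Figure D3:**
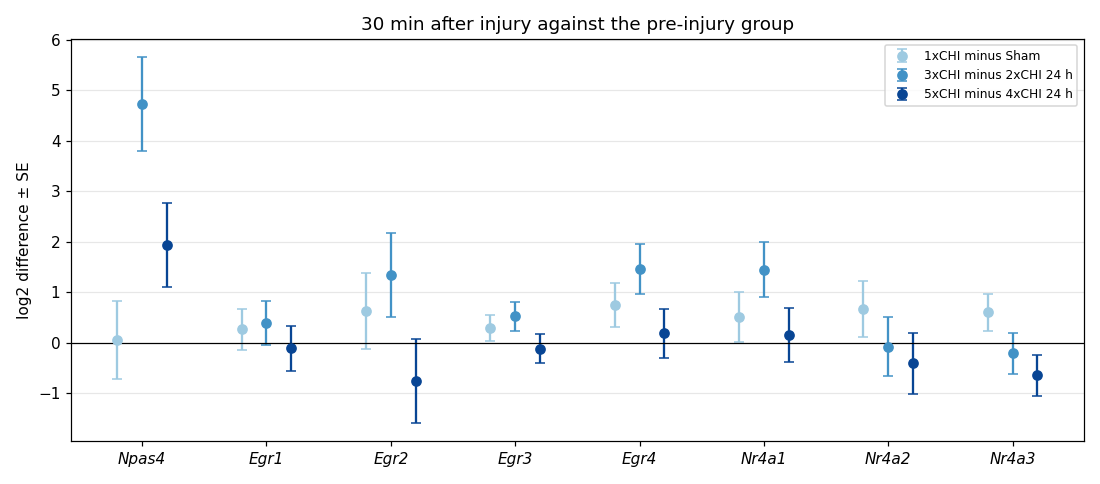
Log2 difference (± SE, from edgeR) of each member between 30 min after 1xCHI, 3xCHI or 5xCHI and its pre-injury group (Sham, 2xCHI at 24 h or 4xCHI at 24 h). Npas4 is at 0.06, 4.72 and 1.94, and no point passed the adjusted threshold.

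At 4 h the members were mostly below the pre-injury groups. The count with an unadjusted p under 0.05 was 3 of 8 after 1xCHI (10.5% of all features), 1 of 8 after 3xCHI (2%) and 3 of 8 after 5xCHI (5.35%). After 5xCHI at 4 h the astrocyte, microglia and oligodendrocyte markers were all higher than in 4xCHI at 24 h (median log2 differences 0.39, 0.41 and 0.32). Replicate 10 had the highest of these sums in its group, the 4xCHI group held replicate 25, and their part was not tested. At 24 h the count was 2 of 8 after 1xCHI (6.02%) and 1 of 8 after 3xCHI (4.58%). After 5xCHI at 24 h it was 7 of 8 (6.45%), all lower than 4xCHI at 24 h, with log2 differences from -0.64 for Egr3 to -2.55 for Egr2 and edgeR adjusted p-values of 0.635 to 0.725. Replicate 11 of 5xCHI at 24 h was the lowest of the 39 samples for 6 members, with 68.8 CPM of Egr1 and 26.9 CPM of Nr4a1, and the group it was compared with held replicate 25, which was high. The glial sums of replicate 11 were high and its neuronal sum low, as given above, and their part in the difference was not tested. Leaving out 1 sample moved the difference to between -3.08 and -1.30 for Egr2, -1.86 and -0.76 for Nr4a1 and -1.24 and -0.54 for Egr1, with the smallest size in each without replicate 25 and the largest without replicate 24. Without both 11 and 25, a fit added after the values were seen, the differences were -1.12 for Egr2, -0.55 for Nr4a1 and -0.26 for Egr1.

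The dependence of the 30 min level on the injury number was tested directly. No member passed the adjusted threshold of edgeR (0% of features), with an adjusted p of 0.772 for both Npas4 and Nr4a3. These were the 2 members with an unadjusted p under 0.05, which held for 4.87% of all features. The change from pre-injury to 30 min differed among 1xCHI, 3xCHI and 5xCHI at an unadjusted edgeR p of 0.00171 for Npas4 and at no such p for the other 7 (4.46% of all features), with an adjusted p of 0.996. The change of Npas4 was larger for 3xCHI than for 1xCHI by 4.66 ± 1.18 (SE) on the log2 scale, with an edgeR adjusted p of 0.448. Levels at 24 h across Sham and 1xCHI to 5xCHI differed at an unadjusted p under 0.05 for 1 member, Egr2 (edgeR, adjusted p = 0.984), against 4.59% of all features, and no feature passed the adjusted threshold of edgeR (0%).

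Sample by sample, the members fell into different combinations. The 3 samples high in Npas4 (replicates 4 and 22 of 3xCHI and 8 of 5xCHI at 30 min) also had high Egr2 (14.9 to 34.4 CPM), Egr4 (66.9 to 96.8 CPM) and Nr4a1 (213 to 355 CPM) but 19.0 to 28.1 CPM of Nr4a3. Replicates 13 and 14 of 1xCHI at 30 min had 24.9 and 18.7 CPM of Egr2, 73.1 and 52.2 CPM of Egr4, 211 and 175 CPM of Nr4a1 and the highest Nr4a3, with 37.6 and 25.4 CPM of Npas4. They were also the 2 samples with the highest blood markers, which summed to 123, 235 and 133 CPM in replicates 4, 22 and 8, and the part of blood in these levels was not tested. Replicate 20 of Sham and replicate 25 of 4xCHI at 24 h were also high in Egr1, Egr2, Egr4, Nr4a1 and Nr4a3; the latter was taken 24 h after injury, and for the former the time since anaesthesia is not known.

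**Figure D4:**
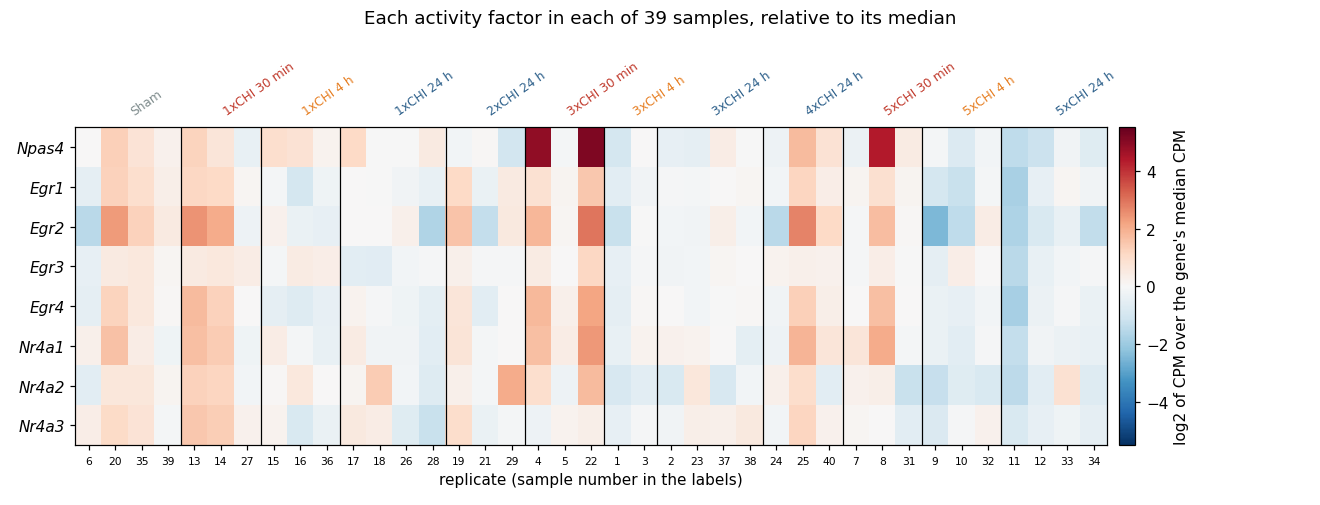
Log2 of the CPM of each member over its median in the 39 samples, with samples in columns by group and sample number and members in rows. Npas4 is dark red in replicates 4, 22 and 8, whereas replicates 20, 13, 14 and 25 are red in most rows with a paler Npas4.

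**Figure D5:**
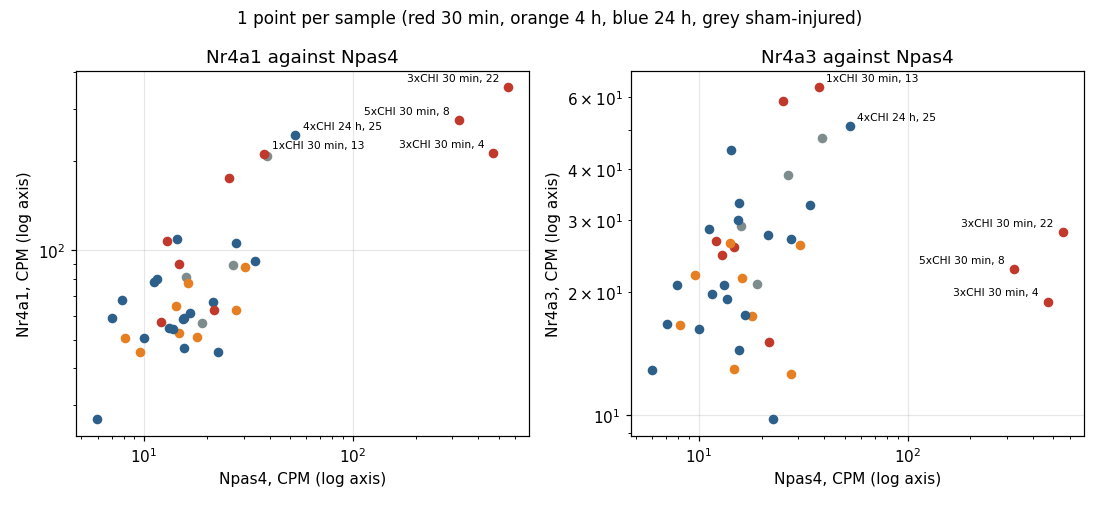
Nr4a1 and Nr4a3 against Npas4 in CPM (log axes), 1 point per sample, with selected samples named by group and number. The 3 samples above 300 CPM of Npas4 are high in Nr4a1 (213 to 355 CPM) and between 19.0 and 28.1 CPM in Nr4a3.

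Over the 39 samples, the Pearson correlation of log2 CPM between 2 members had a median of 0.66 over the 28 pairs, and 0.62 after removal of the 12 group means. It was highest for Egr4 and Nr4a1 (0.93) and lowest for Npas4 and Nr4a3 (0.23). These values are descriptions, since the points share libraries and group differences. In what follows only genes outside the 8 members were ranked, although some members were closer, such as Egr4 to Egr1 (0.91). The genes outside the members most like each member were mostly other activity genes: Btg2, Fos and Ptgs2 for Npas4 (0.84 to 0.88), Fos, Arc and Junb for Egr4 and, in another order, for Nr4a1 (0.84 to 0.93), Fos, Arc and Sik1 for Egr2 (0.81 to 0.88), and Dusp6, Arc and Dnajb5 for Egr1 (0.80 to 0.87). The 3 genes nearest to Egr3 were Bdnf, Nptx2 and Homer1 (0.73 to 0.76). Nr4a3 was nearest to Fosl2, Midn and Coq10b (0.80 to 0.83), and Nr4a2 to Gnb4, Ncoa5 and Il17ra (0.65 to 0.70).

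Some other rapid activity genes were higher at 30 min as well. Of 23 other rapid activity genes tested (24 listed, 1 of which, Atf3, was left out by the filter), 9 were called at 30 min against 24 h, all higher, against 0.151% of all features. The log2 difference was above 0 in 22 of 23, with a median of 0.78. The 4 largest among the 9 were Fosb (2.98), a Fos family subunit of AP-1, Ccn1 (2.51), a matricellular protein, Fos (2.50) and Btg2 (1.62), an antiproliferative factor. Of 15 delayed activity genes 1 was called, Ptgs2 (1.70), which encodes cyclooxygenase-2, and the median was 0.24. Fosb was the only listed gene called for 30 min against 4 h, and none of these lists had a call for 4 h against 24 h. The lists were chosen with earlier results of these data known, so their counts against all features are descriptions and no independent support.

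Fos was 199, 278 and 215 CPM in replicates 4, 22 and 8, 72.3 and 106 CPM in replicates 13 and 14, and 100.0 CPM in replicate 25 of 4xCHI. Ptgs2 was 45.2, 94.0 and 87.2 CPM in replicates 4, 22 and 8 but 17.4 and 19.3 CPM in replicates 13 and 14. Klf4, a zinc finger factor, showed the opposite order, with 28.1 and 47.1 CPM in replicates 13 and 14 and 9.71, 10.2 and 18.7 CPM in replicates 4, 22 and 8. Fosl2 was likewise 65.2 and 67.1 CPM against 22.0, 45.2 and 41.1 CPM. Fos was thus high in all 5 of these samples, Ptgs2 was higher in the 3 that were high in Npas4, and Klf4 and Fosl2 were higher in replicates 13 and 14. Klf4 was singled out after its values were seen. Fos and Ptgs2 were among the genes nearest to Npas4, and Fosl2 among those nearest to Nr4a3, over the same samples, so these orders are descriptions.

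For partners and regulators of the members no change was detected. None of the 8 partners and corepressors listed (Arnt, Rxr and Nab genes and the like) and none of 10 upstream regulators (Srf, Elk, Mef2, Creb1 and the like) was called at 30 min against 24 h by edgeR, 2 and 1 of them had an unadjusted p under 0.05 (10.5% of all features), and their median log2 differences were 0.03 and -0.04.

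Markers of cell types and neighbouring tissue were compared beside these results, over 1xCHI, 3xCHI and 5xCHI. None was called at 30 min against 24 h. The 5 excitatory neuron markers summed to 5793 to 7653 CPM at 30 min, 5175 to 7310 CPM at 4 h and 4297 to 7608 CPM at 24 h, and to 6040, 7016 and 7091 CPM in replicates 4, 22 and 8, within the range of the other samples. The 5 striatal markers summed to 37.6 to 95.2 CPM at 30 min and 29.9 to 342 CPM at 24 h, all 5 lower at 30 min (median log2 difference -0.73). The astrocyte, microglia and meningeal markers were also all lower at 30 min (medians -0.13, -0.14 and -0.34). All 5 blood markers (median 0.15) and the 2 choroid plexus markers tested (median 0.87) were higher, and the other lists tested went both ways. Infiltrating myeloid markers were low at all 3 times, summing to at most 4.77 CPM, and all 5 failed the count filter. Choroid plexus markers summed to 2462 CPM in replicate 31 of 5xCHI at 30 min and to 5.21 to 33.5 CPM in replicates 4, 22 and 8. Whether dissection or cell content had a part in the members' differences was not tested.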

How the data were processed

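RNA sequencing was done on 40 samples, and the authors deposited estimated counts per gene, as salmon writes them by gene, with no normalization or filter; 4.47% of the values were not whole. The aligner version and annotation are not given in the sources used here, the submitters' processing notes name the build mm10, and 55450 of the 55539 identifiers matched GENCODE M21. All columns of values were mapped (0 not used). The estimated counts were rounded here. A feature was left out where over 4 of the 39 samples used had under 10 counts of it. Each comparison was a contrast of 12 group means in 1 edgeR 4.0.16 quasi-likelihood fit (TMM, Benjamini-Hochberg adjustment over all features, R 4.3.3); DESeq2 1.42.0 and other settings were alternatives. Log2 CPM for correlations used a prior count of 1. P-values measure the spread between these samples. The 46 pairs of samples within groups each differed by more than the noise of sampling (chi-square per gene of at least 6.85). Members and lists were chosen with earlier results of these data known. Named were all members, up to 4 called genes per list with the largest change and, among genes outside the members, the 3 most like each member.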

Additional observations from a re-analysis of the deposited data

Results flagged for a closer look

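Egr2 in replicate 37 of 3xCHI at 24 h, at 5.68 CPM, stood apart from the other 3 samples of its group (3.93 to 4.12 CPM), since its gap to the next sample was 0.888 of the range of the group, past Dixon's critical value for 4 samples. Of 32 groups of 4 samples checked over the 8 members, 1 was marked in this way, against 1.6 that chance would give at 1 in 20. Groups of 3 samples, among them every 30 min group, were not checked in this way, so that the spread of Npas4 at 30 min was only described.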

How the results depend on the processing

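The count of members called for any difference between times (1 of 8) was 3 without the count filter (0.0519% of all features), 4 with DESeq2 (0.381%) and 0 in a fit of only the groups compared (0%). For 30 min against 24 h (3 of 8) it was 5 (0.0885%), 6 (0.342%) and 0 (0.0131%) under the same alternatives, 4 with library size scaling (0.164%), with all 40 samples (0.191%) or with the term for sample numbers (0.112%), the fourth being Egr3, and 0 within 1xCHI, 3xCHI or 5xCHI alone (added after seeing the data). For 30 min against 4 h (0 of 8) it was 4 without the filter, with DESeq2 and with all 40 samples. For the 72 tests against pre-injury groups (0 called) it was 1 without the filter and with DESeq2. When each sample was left out in turn, the counts ranged from 1 to 3, 1 to 6, 0 to 4 and 0 to 1 in these 4 comparisons and from 0 to 1 for injury number at 30 min (1 without replicate 8); they stayed at 0 for 4 h against 24 h, for the 30 min change by injury number and for injury number at 24 h. The lower counts for 30 min against 24 h (1) came without replicate 8 (4 features in all), 13 (7) or 22 (8), and the higher ones without replicate 5 (5 members, 33 features) or 27 (6 members, 203 features), against 23 features with all. Of the fits added after seeing the data, the one without replicates 13 and 14 gave 0 members for 30 min against 24 h but still 1, Npas4, for any difference, and the one without 11 and 25 gave 2 for any difference and 3 for 30 min against 4 h. With a term for sample numbers 1 to 18 against 19 to 40, a split seen in earlier results of these data and no labelled batch, the log2 difference of Npas4 between 30 min and 24 h was 2.83 (edgeR, adjusted p = 0.00502). No paired analysis was possible because the labels give each sample its own number.

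Signs turned only for differences that were not called. With the term for sample numbers these were Egr2 at 4 h against 24 h (0.057) and Egr1 and Egr3 at 30 min after 5xCHI against 4xCHI at 24 h (0.17 each). With library size scaling, Npas4 at 30 min after 1xCHI against Sham was -0.0056. With 1 sample left out, the ranges at 4 h against 24 h were -0.067 to 0.26 for Npas4, -0.44 to 0.092 for Egr2 and -0.054 to 0.15 for Nr4a1. At 30 min against pre-injury they were -0.39 to 0.39 for Npas4 after 1xCHI; -0.025 to 0.80 for Egr1, -0.67 to 0.88 for Nr4a2 and -0.46 to 0.32 for Nr4a3 after 3xCHI. After 5xCHI they were -0.82 to 2.52 for Npas4, -0.39 to 0.32 for Egr1, -1.56 to 0.49 for Egr2, -0.55 to 0.69 for Egr4, -0.64 to 0.88 for Nr4a1 and -0.72 to 0.020 for Nr4a2. Without replicates 13 and 14, the differences at 30 min after 1xCHI against Sham were -1.04 for Npas4, -0.50 for Egr1, -1.47 for Egr2, -0.47 for Egr4, -0.90 for Nr4a1, -0.42 for Nr4a2 and -0.33 for Nr4a3. Without 11 and 25, Nr4a1 at 4 h against 24 h was -0.013, Egr1, Egr2 and Nr4a2 at 30 min after 5xCHI were 0.32, 0.49 and 0.019, and Nr4a2 at 24 h after 5xCHI against 4xCHI was 0.16. The cause was not tested. With 2 to 4 samples a group, the spread between samples limits these comparisons, and the part of depth was not tested.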
